A study of Bos taurus with 53 samples.

Results

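The 41 genes described here encode the machinery that breaks fatty acids down: enzymes that activate them, the carnitine shuttle that carries them into mitochondria, the mitochondrial oxidation spiral, and peroxisomal oxidation. They were taken by gene symbol from lists of these pathways, and all 41 were present among the 24596 features of the deposited bovine table. A fatty acid is first joined to coenzyme A by an acyl-CoA synthetase, then handed to carnitine by CPT1, moved across the inner membrane and handed back to coenzyme A by CPT2. Each turn of the spiral consists of a dehydrogenation, a hydration, a second oxidation and a thiolytic cleavage, and the electrons of the first step leave through the electron transfer flavoprotein. Peroxisomes run a parallel spiral for very long and branched chains, and the oocyte and early embryo are known to draw on their lipid stores by these routes.

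Messenger RNA had been sequenced from bovine embryos whose oocytes were matured in vitro in 1 of 3 media: CONTROL, free of fatty acids and of solvent; BASAL, with 28 µM stearic, 23 µM palmitic and 21 µM oleic acid in 0.45% ethanol; and HIGH PA, with the same stearic and oleic acid and solvent but 150 µM palmitic acid. After fertilisation and culture, blastocysts were placed in recipient cows, 8 to a cow, flushed on day 14, scored as tubular, ovoid or spherical, and cut into embryonic disc (ED) and extraembryonic tissue (EX). The 53 libraries came from 30 embryos of 7 cows, with 12 BASAL, 8 HIGH PA and 3 CONTROL discs, 14 BASAL, 10 HIGH PA and 4 CONTROL extraembryonic samples, and 2 undissected HIGH PA embryos. Every CONTROL embryo came from the same cow, which also carried 3 BASAL embryos and 1 HIGH PA embryo, and embryos of a cow may share a flush. Sex was labelled for all embryos but that of EX HIGH PA 9, and it was uneven between media. All CONTROL discs were male, as were all HIGH PA discs except ED HIGH PA 5, while BASAL discs were of both sexes. Only the oocyte met the fatty acids, during maturation, and the RNA was taken on day 14.

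The 2 libraries ED BASAL 7 (6814 exon reads) and EX BASAL 7 (9810), were too shallow for levels and were left out of all levels below, while the fits kept them. The others held 119116 to 6167850 exon reads in discs (n = 22) and 340016 to 19533821 in extraembryonic tissue (n = 27). Of 6 epiblast genes in the table, SOX2, NODAL, PRDM14 and FGF8 had a median of 0 in extraembryonic tissue, and the mesoderm and streak genes EOMES and T did too, so the tissue labels held for the groups. The disc library ED BASAL 12 stood apart, with the lowest epiblast sum of the discs, 96.8 CPM (counts scaled to 1000000 exon reads per library), and 1.2 CPM for the mesoderm and streak genes, against disc medians of 609 and 127. Discs also carried trophectoderm transcripts: the 10 trophectoderm genes summed to 7175 to 19258 CPM in discs and 16352 to 30441 CPM in extraembryonic tissue. In such pieces of tissue, fewer cells of a type and less RNA per cell cannot be told apart.

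On a scale of CPM per kb of exon, which allows genes to be compared, 25 of the 41 genes had a median above 10 in discs and 24 did in extraembryonic tissue. ACSL3, a synthetase of the endoplasmic reticulum and lipid droplets, had the highest level in both tissues: its median was 264 in discs and 384 in extraembryonic tissue, or 20.6% and 25.9% of the summed level of the 41 genes. In extraembryonic tissue it was followed by the peroxisomal thioesterase ACOT8 (205) and SCP2, the sterol carrier protein and thiolase (182), and then by ETFB, the smaller subunit of the electron transfer flavoprotein (113). In discs the order was SCP2 (128), ETFB (118), ACOT8 (76.5) and the peroxisomal thiolase ACAA1 (75.9). The library ranges of neighbours in this order overlapped in both tissues.

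The levels within a family were uneven. Of the 3 CPT1 genes, CPT1A, the form of liver and most tissues, had medians of 4.98 in discs and 7.32 in extraembryonic tissue on the same scale. The muscle form CPT1B (0.660 and 0.329) and the brain form CPT1C (0.308 and 0.368) lay far lower. ACSL5 was at 0 in 17 of 22 disc libraries and 11 of 27 extraembryonic libraries. Medians under 1 in both tissues were also found for CROT, which moves shortened acyl groups from peroxisomes onto carnitine, and for ACADL, the long-chain dehydrogenase. ACADVL, the very-long-chain dehydrogenase of the inner membrane, stood at 22.3 and 30.7, next to the medium-chain ACADM at 23.5 and 22.2. The ACADM value is less certain, because only 39.9% of its exon reads were placed uniquely. By role, the peroxisomal genes made up a median of 30.2% of the summed level in discs and 37.6% in extraembryonic tissue, and the 4 synthetases 22.2% and 28.6%. The 5 enzymes of mitochondrial hydration, second oxidation and thiolysis made up 11.8% and 6.43%, and the carnitine shuttle 5.04% and 4.26%.

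**Figure D1:**
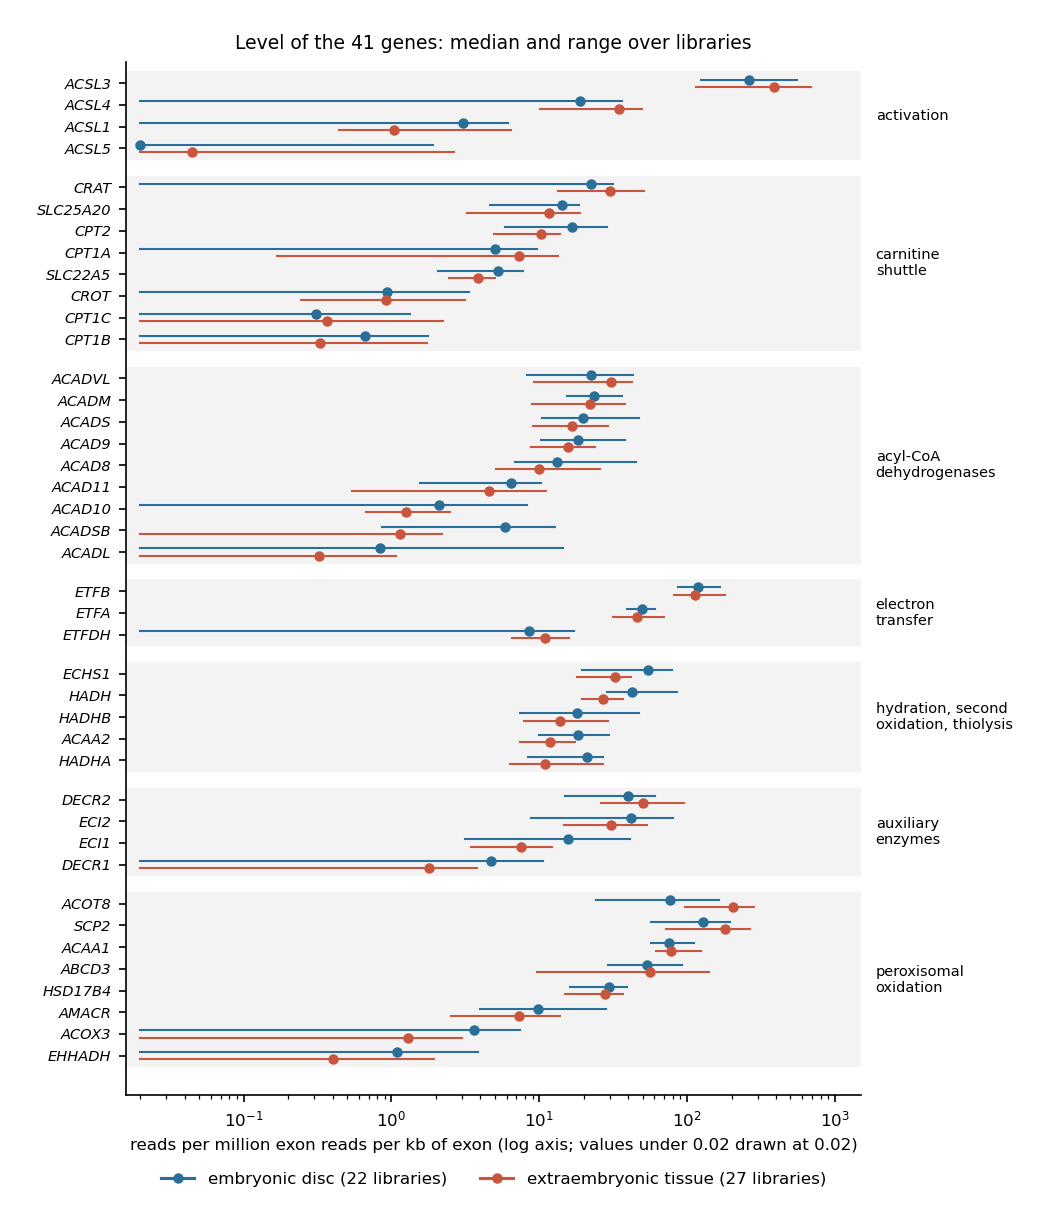
Level of each of the 41 genes in CPM per kb of exon, on a log axis, in 22 embryonic disc libraries (blue) and 27 extraembryonic libraries (red); the point is the median and the bar runs from the lowest to the highest library. ACSL3 lies highest in both tissues, and the medians of ACSL5, CPT1B, CPT1C, CROT and ACADL lie under 1 in both.

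Between the tissues, 10 of the 41 genes were higher in extraembryonic tissue and 13 were lower, shares like those of all genes. These calls are at a Benjamini-Hochberg adjusted p under 0.05 in edgeR's quasi-likelihood test within 23 embryos. Among the higher genes were ACOT8, SCP2, ACSL4, ACSL3, ACADVL and CRAT. Among the lower were 4 of the 5 mitochondrial hydration, second oxidation and thiolysis genes, the synthetase ACSL1 and the dehydrogenase ACADSB. The 56.1% of members called is close to the 55.7% called among all 12291 genes tested, of which 24.2% were higher and 31.5% lower. At an unadjusted p under 0.05 the count of members was 23 as well, beside 60.1% of all genes. The median log2 fold change of the 41 genes was -0.004, beside -0.02 over all genes. Before scaling, the 41 genes summed to a median of 2634 CPM in discs (1944 to 3426) and 3128 CPM in extraembryonic tissue (1864 to 4067), with overlap. All 41 passed the filter on low counts. Fold changes are extraembryonic over disc after trimmed-mean scaling, so they can differ from the ratio of 2 CPM medians. Counts of embryos below compare CPM before that scaling. Some genes that were not called also had many embryos on the lower side: HADHB and AMACR 19 of 22, ECI2 18 and ETFA 17. On the higher side, genes not called reached at most 13, for CPT1C.

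Among the activating enzymes, ACSL4, which prefers arachidonic and other polyunsaturated acids, ran from 0 to 78.6 CPM in discs with a median of 41.4, and from 22.1 to 109 with a median of 75.6 in extraembryonic tissue. It was higher in the extraembryonic part of 18 of 22 embryos, by 1.03 on the log2 scale (SE 0.18, adjusted p 1.38e-05). ACSL3 ran from 302 to 1354 CPM in discs (median 648) and from 281 to 1696 in extraembryonic tissue (median 942). The 2 ranges overlapped widely, and within embryos ACSL3 was higher in 15 of 22, by 0.55 (SE 0.17, adjusted p 0.00622). ACSL1, the synthetase of oxidative tissues such as muscle and fat, went the other way. Its medians were 11.2 CPM in discs and 3.79 in extraembryonic tissue, and it was lower in 20 of 22 embryos, at -1.47 on the log2 scale (SE 0.17, adjusted p 1.6e-08). Of the 27 extraembryonic libraries the highest for ACSL1, at 23.4 CPM, was the spherical embryo EX HIGH PA 10.

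In the carnitine shuttle, 2 genes were higher in extraembryonic tissue, 1 was lower and 5 were not called. CRAT, the carnitine acetyltransferase, had medians of 57.6 CPM in discs and 78.0 in extraembryonic tissue and was higher in 19 of 22 embryos, by 0.74 on the log2 scale (SE 0.15, adjusted p 0.000168). CPT1A, the gate of mitochondrial entry, had medians of 13.1 and 19.2 CPM and differed by 0.54 on the log2 scale (SE 0.22, adjusted p 0.0375), with 15 of 22 embryos higher. That call was lost with DESeq2 size factors in edgeR (adjusted p 0.0913). CPT2, which returns the acyl group to coenzyme A inside the mitochondrion, ran from 14.0 to 68.8 CPM in discs and from 11.8 to 32.6 in extraembryonic tissue. It was lower in 19 of 22 embryos, by -0.41 (SE 0.11, adjusted p 0.00199). The translocase SLC25A20 (0.07, 95% interval -0.12 to 0.27) and the carnitine importer SLC22A5 (-0.16, -0.40 to 0.07) were not called, and neither were CPT1B, CPT1C and CROT. The intervals of those last 3 genes reached from -1.20 to 1.33.

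Of the 9 acyl-CoA dehydrogenases, 1 was higher, 3 were lower and 5 were not called. ACADVL ran from 17.8 to 92.3 CPM in discs (median 47.6) and from 19.7 to 90.4 in extraembryonic tissue (median 65.6). It was higher in the extraembryonic part of 21 of 22 embryos, by 0.70 (SE 0.11, adjusted p 3.35e-06). ACADSB, the short branched-chain dehydrogenase of isoleucine breakdown, had the lowest log2 fold change of the 41 genes. This gene, ENSBTAG00000018041 on chromosome 26 (43134414 to 43184345, UMD3.1), stood at 1.60 to 23.7 CPM in discs (median 10.9) and at 0 to 4.06 in extraembryonic tissue (median 2.12). It was lower in 22 of 22 embryos, at -2.17 on the log2 scale (SE 0.19, adjusted p 3.5e-11), which is 4.5-fold. The only disc within the extraembryonic range was ED BASAL 12, the library with few disc transcripts, at 1.60 CPM. ACADL, at 1.47 CPM in discs and 0.563 in extraembryonic tissue, was lower by -1.28 (SE 0.34, adjusted p 0.00183), and ACAD10 was lower by -0.67 (SE 0.20, adjusted p 0.00623). Both rest on few reads, 210 for ACADL over all libraries above 10000 reads and 1734 for ACAD10. By the same count ACADSB had 1031 reads. Of the called genes outside this family, ACSL1 had 1526, DECR1 1070, ACOX3 886 and EHHADH 516. ACADM, the short-chain ACADS, the valine-pathway enzyme ACAD8, the complex I assembly factor ACAD9 and ACAD11 were not called, with log2 fold changes between -0.36 and 0.07.

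The electrons of those dehydrogenases pass through ETFA and ETFB to ETFDH. The flavoprotein subunits were not called: ETFA ran from 54.4 to 83.2 CPM in discs and from 43.5 to 95.8 in extraembryonic tissue, and its log2 fold change was 0.05 (95% interval -0.10 to 0.20). ETFB had a log2 fold change of 0.19 (-0.01 to 0.40). ETFDH, the oxidoreductase that accepts the electrons in the inner membrane, was higher in 18 of 22 embryos, with medians of 19.1 and 24.5 CPM and a difference of 0.53 (log2, SE 0.11, adjusted p 8.83e-05).

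Of the 5 genes for the remaining mitochondrial steps, 4 were lower in extraembryonic tissue and 0 higher. HADH, the medium and short chain hydroxyacyl-CoA dehydrogenase, was lower in 22 of 22 embryos: it ran from 51.0 to 151 CPM in discs and from 34.3 to 65.5 in extraembryonic tissue, or -0.43 on the log2 scale (SE 0.09, adjusted p 0.000149). HADHA and HADHB encode the 2 subunits of the mitochondrial trifunctional protein and lie side by side on chromosome 11 (HADHA at 73246484 to 73288803, HADHB at 73215423 to 73246167, UMD3.1). HADHA had medians of 57.5 CPM in discs and 29.9 in extraembryonic tissue and was lower in 21 of 22 embryos, at -0.60 on the log2 scale (SE 0.09, adjusted p 9.04e-07). HADHB had medians of 41.8 and 31.7 CPM and was not called (-0.17, 95% interval -0.35 to 0.02, adjusted p 0.121). The difference between those 2 fold changes was not tested. The 2 spherical extraembryonic samples held the most HADHA of their tissue, 73.5 and 67.4 CPM, inside the disc range, while ED BASAL 12 held the least of the discs, 22.8 CPM. ECHS1, the enoyl-CoA hydratase (79.3 and 47.4 CPM), fell by 0.39 (SE 0.11, adjusted p 0.00406) and ACAA2, the mitochondrial thiolase (29.05 and 18.5 CPM), fell by 0.38 (SE 0.11, adjusted p 0.00323). Each was lower in 20 of 22 embryos.

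Unsaturated fatty acids need auxiliary enzymes that move or reduce double bonds. The mitochondrial members ECI1, an isomerase, and DECR1, the dienoyl-CoA reductase, were lower in extraembryonic tissue, by -0.75 (SE 0.18, adjusted p 0.000689) and -1.14 (SE 0.21, adjusted p 3.64e-05). DECR1 had medians of 7.54 CPM in discs and 2.86 in extraembryonic tissue. The peroxisomal reductase DECR2 was higher, with medians of 76.8 and 97.8 CPM and a difference of 0.62 (log2, SE 0.13, adjusted p 0.000259). ECI2 was not called (-0.01, 95% interval -0.29 to 0.26).

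The peroxisomal genes went both ways, 3 higher, 2 lower and 3 not called. ACOT8, which releases free acids from acyl-CoAs in the peroxisome, had the highest log2 fold change of the 41 genes. The gene, ENSBTAG00000020371 on chromosome 13 (75327438 to 75339408, UMD3.1), ran from 28.1 to 191 CPM in discs (median 88.9) and from 113 to 328 in extraembryonic tissue (median 239). It was higher in 22 of 22 embryos, by 1.55 (SE 0.15, adjusted p 4.02e-10), although the ranges of the tissues overlapped. The lowest extraembryonic values, 113 and 129 CPM, were those of the 2 spherical embryos, and the second highest disc, at 189 CPM, was ED BASAL 12. SCP2 had medians of 335 and 477 CPM and was higher in 17 of 22 embryos, by 0.71 (SE 0.15, adjusted p 0.000156). ACAA1 was called at 0.31 on the log2 scale (SE 0.09, adjusted p 0.00545), but its medians were close, 121 and 123 CPM, and it was higher in 12 of 22 embryos before scaling. ACOX3, a branched-chain oxidase, and EHHADH, the L-bifunctional enzyme, were lower by -1.26 (SE 0.22, adjusted p 1.48e-05) and -1.29 (SE 0.27, adjusted p 0.000161). Both had low medians in discs and extraembryonic tissue, 6.88 and 2.46 CPM for ACOX3 and 3.15 and 1.17 CPM for EHHADH. HSD17B4, the D-bifunctional enzyme of the same 2 steps as EHHADH, was at 77.3 and 72.5 CPM and was not called (-0.00, 95% interval -0.18 to 0.17). ABCD3, the transporter that brings acyl groups into peroxisomes, and the racemase AMACR were not called either. ABCD3 had similar medians, 184 and 193 CPM, with a wider range in extraembryonic tissue (33.5 to 484 CPM) than in discs (100 to 317 CPM).

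**Figure D2:**
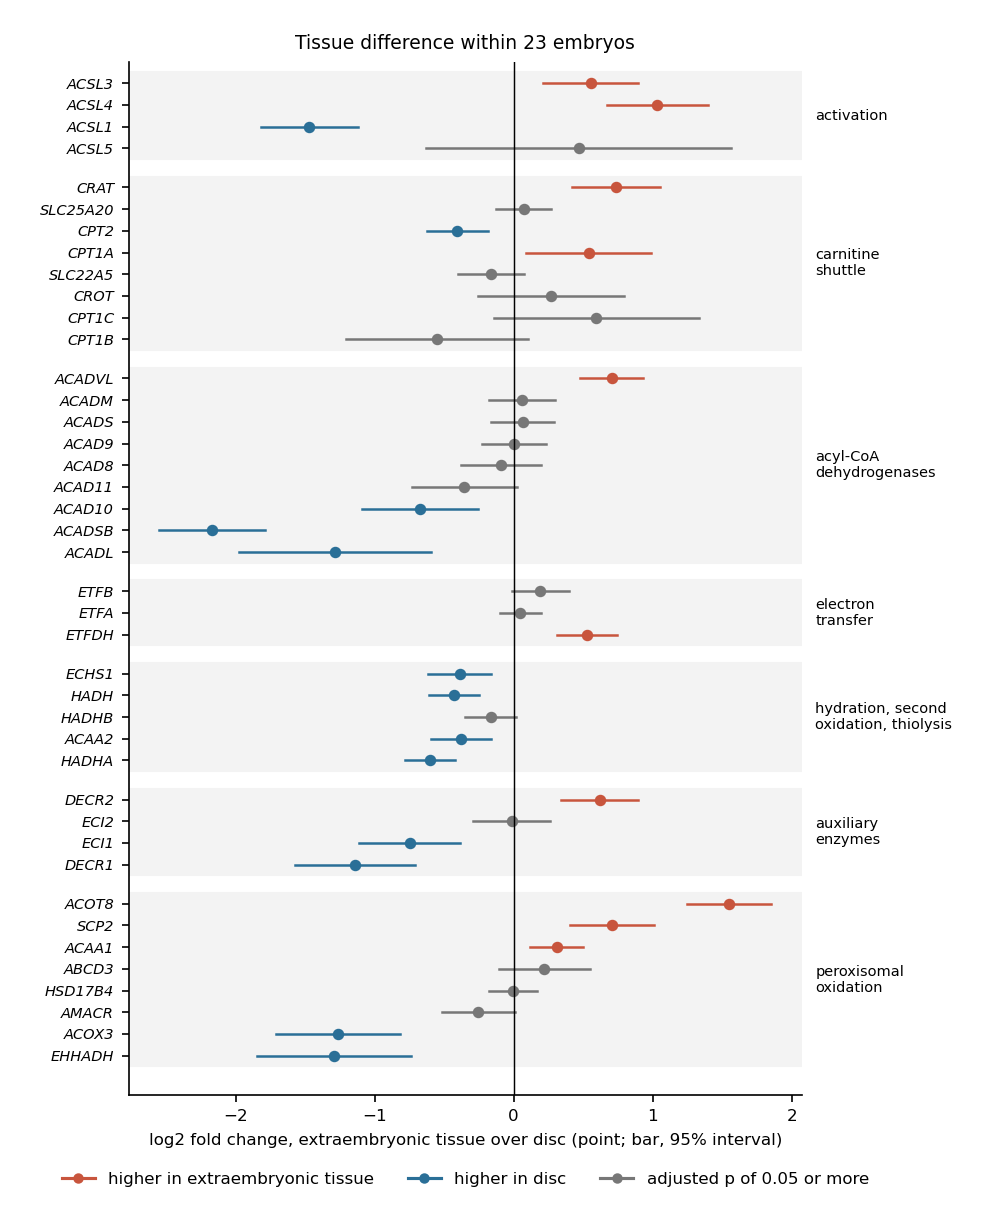
Log2 fold change of each gene, extraembryonic tissue over disc, within 23 embryos (point) with its 95% interval (bar), by role; red marks the 10 genes called higher, blue the 13 called lower and grey the rest. The 4 called genes of hydration, second oxidation and thiolysis all lie left of 0, and ACOT8 and ACADSB lie farthest right and left.

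**Figure D3:**
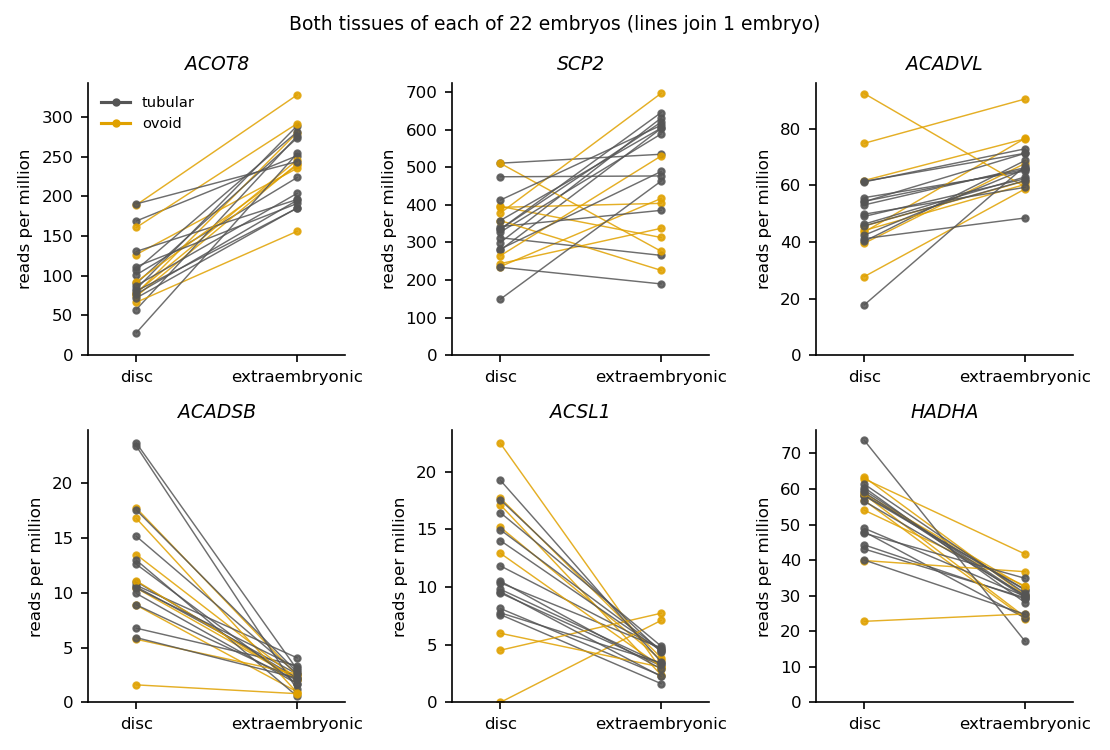
CPM in both tissues of 22 embryos for 6 genes, with a line for each embryo in grey (tubular) or yellow (ovoid). ACOT8 rises and ACADSB falls in 22 of 22 embryos, while SCP2 rises in 17 and ACSL1 falls in 20.

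Some facts about the libraries lie beside these differences. Disc RNA was isolated with a micro kit and extraembryonic RNA with a mini kit, per the labels, so kit and tissue cannot be told apart. Lane numbers in the column names also separate the tissues: both parts of an embryo shared a lane in 1 of 22 pairs, and with lane as a term beside the embryo 0 members were called (392 of 12291 genes were, and 6 members had an unadjusted p under 0.05), while the 23 fold changes kept their direction. The balance of calls over all genes moved with the scaling or tool: 43.5% of them were higher, against 33.3% with DESeq2 size factors in edgeR and 51.7% with DESeq2, and the median over all genes moved from -0.02 to -0.11 and 0.05. The members then split into 9 higher and 16 lower, and 11 higher and 13 lower.

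Related genes outside the 41 were compared between tissues in the same fit, where 24.2% of all genes were higher and 31.5% lower. Of 23 tested genes for further mitochondrial oxidation, carnitine synthesis and ketone bodies, 2 were higher and 12 lower in extraembryonic tissue (median log2 fold change -0.37). OXCT1, the enzyme that activates ketone bodies for use, had medians of 21.5 CPM in discs and 7.35 in extraembryonic tissue, and was lower in 22 of 22 embryos by -1.38 (SE 0.14, adjusted p 7.31e-10). HIBADH, of valine breakdown, was lower by -1.37 (SE 0.13, adjusted p 2.79e-10) and BDH2 by -2.92 (SE 0.29, adjusted p 6.24e-10). The methylmalonyl-CoA epimerase gene MCEE and the valine-pathway hydrolase HIBCH were higher, by 0.61 and 0.28. Of 35 other peroxisomal genes, 11 were higher, led by the peroxin PEX16 (0.79, SE 0.11), catalase CAT (0.97, SE 0.14) and PEX19 (0.48, SE 0.08). The 7 lower ones were led by the fatty alcohol enzyme FAR2 (-3.82, SE 0.21), IDH1 (-0.96, SE 0.13) and PXMP2 (-1.16, SE 0.18).

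Of 20 tested genes for other acyl-CoA activation, binding and hydrolysis, 6 were higher and 8 lower. The transporter SLC27A6 had medians of 14.1 CPM in discs and 78.4 in extraembryonic tissue (2.29, SE 0.35, adjusted p 2.31e-06), and FABP5 (0.59) and THEM4 (0.68) were higher too. ACSS3 (-5.70, SE 0.34), ACSF2 (-3.16, SE 0.23) and the fatty acid binding protein FABP7 (-5.17, SE 0.38) were lower. Of 30 tested regulators, 6 were higher, led by the AMP kinase subunit PRKAB1 (0.73, SE 0.09), PPARG (1.53, SE 0.24) and ESRRA (0.52, SE 0.10). The 11 lower ones were led by FOXO1 (-4.58, SE 0.37), ESRRG (-3.95, SE 0.41) and HNF4A, which fell from a median of 50.4 CPM in discs to 8.96 in extraembryonic tissue (-2.04, SE 0.23). The part of trophectoderm and hypoblast content in these differences was not tested: the 10 hypoblast genes summed to a median of 1218 CPM in discs and 536 in extraembryonic tissue.

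Whether the HIGH PA effect differed between tissues was tested as an interaction within embryos. By edgeR 0 of 41 members were called, as were 0 of 12291 genes (0.0%), and DESeq2 also called 0 members. At an unadjusted p under 0.05 there was 1 member, CRAT, against 3.07% of all genes. The HIGH PA minus BASAL difference of CRAT was higher in extraembryonic tissue than in discs by 0.81 (SE 0.37, p 0.0363, adjusted p 1.0). Next by p on that side were ACOT8 (0.62, SE 0.32) and ETFB (0.33, SE 0.24), and on the opposite side ACADL (-1.50, SE 0.74), ACADSB (-0.84, SE 0.45) and ACSL5 (-2.22, SE 1.36). The median SE of the 41 interaction terms was 0.33, and a difference as large as that of CRAT did not pass the adjusted threshold.

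Palmitic acid during maturation, the question of HIGH PA against BASAL at a constant solvent, left 0 of 37 tested members called in day 14 discs, and 0.0% of 11040 genes. DESeq2 called 0 members as well. ACSL5, CPT1C, CROT and ACADL did not pass the filter in discs. At an unadjusted p under 0.05 there was 1 member, against 9.09% of all genes: ETFB. It ran from 93.1 to 141 CPM in 11 BASAL discs with a median of 107, and from 73.2 to 139 in 8 HIGH PA discs with a median of 91.7, so the groups overlapped. Its log2 fold change was -0.29 (SE 0.14, p 0.0453, adjusted p 0.547). The other lowest p-values on the falling side were those of ACOT8 at -0.54 (SE 0.29, p 0.0729) and CRAT at -0.48 (SE 0.28, p 0.0933). On the rising side they were those of HADHA at 0.30 (SE 0.16, p 0.0702), ACAD9 at 0.30 (SE 0.16, p 0.0751) and HADH at 0.30 (SE 0.17, p 0.0787). The median over the 37 genes was -0.003, and by role it ran from -0.24 for the carnitine shuttle to 0.30 for hydration, second oxidation and thiolysis. The median SE was 0.23. In the same fit the median was 0.80 for epiblast, 0.67 for mesoderm and streak, 0.24 for hypoblast and -0.51 for trophectoderm genes, with 0 called. The part of such content in the members' estimates was not tested. Without ED BASAL 12, 0 members had an unadjusted p under 0.05, beside 660 of 11019 genes.

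In extraembryonic tissue HIGH PA against BASAL likewise gave 0 of 39 tested members called and 0.0% of 11114 genes, and 0 members by DESeq2. ACSL5 and ACADL did not pass the filter, and the sample of undetermined sex, EX HIGH PA 9, was left out of fits in this tissue. At an unadjusted p under 0.05 were 3 members, 7.69% of those tested against 4.96% of all genes. SLC22A5, which imports carnitine into cells, had the lowest p-value. It ran from 8.13 to 16.1 CPM in 13 BASAL samples (median 14.0), from 7.83 to 13.4 in 10 HIGH PA samples (median 9.49) and from 9.64 to 13.9 in 4 CONTROL samples (median 11.1). HIGH PA samples lay mostly in the lower part of the BASAL range, with overlap. The log2 fold change was -0.43 (SE 0.12, p 0.000979, adjusted p 0.392).

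The other 2 were both subunits of the trifunctional protein. HADHB ran from 18.2 to 40.1 CPM in BASAL (median 28.5) and from 28.8 to 67.4 in HIGH PA (median 34.3), a log2 fold change of 0.34 (SE 0.13, p 0.0136, adjusted p 0.918). HADHA ran from 17.1 to 36.8 CPM in BASAL (median 28.9) and from 24.0 to 73.5 in HIGH PA (median 31.96), a log2 fold change of 0.31 (SE 0.12, p 0.0154, adjusted p 0.941). For both genes the HIGH PA and BASAL samples overlapped, and the highest HIGH PA value came from a spherical embryo. The HADHB difference was 0.083 without the libraries that carry a mark 2 in their name, and the HADHA difference was 0.10 with lane as a term. Also named by lowest p were ACSL1 at 0.51 (SE 0.27, p 0.0657), SLC25A20 at -0.21 (SE 0.14, p 0.223) and ACAD11 at -0.46 (SE 0.37, p 0.220). The ACSL1 difference was -0.036 without the marked libraries. The 39 genes had a median of -0.004 and a median SE of 0.18. Of the related lists, 0 tested genes were called for HIGH PA against BASAL in either tissue.

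**Figure D4:**
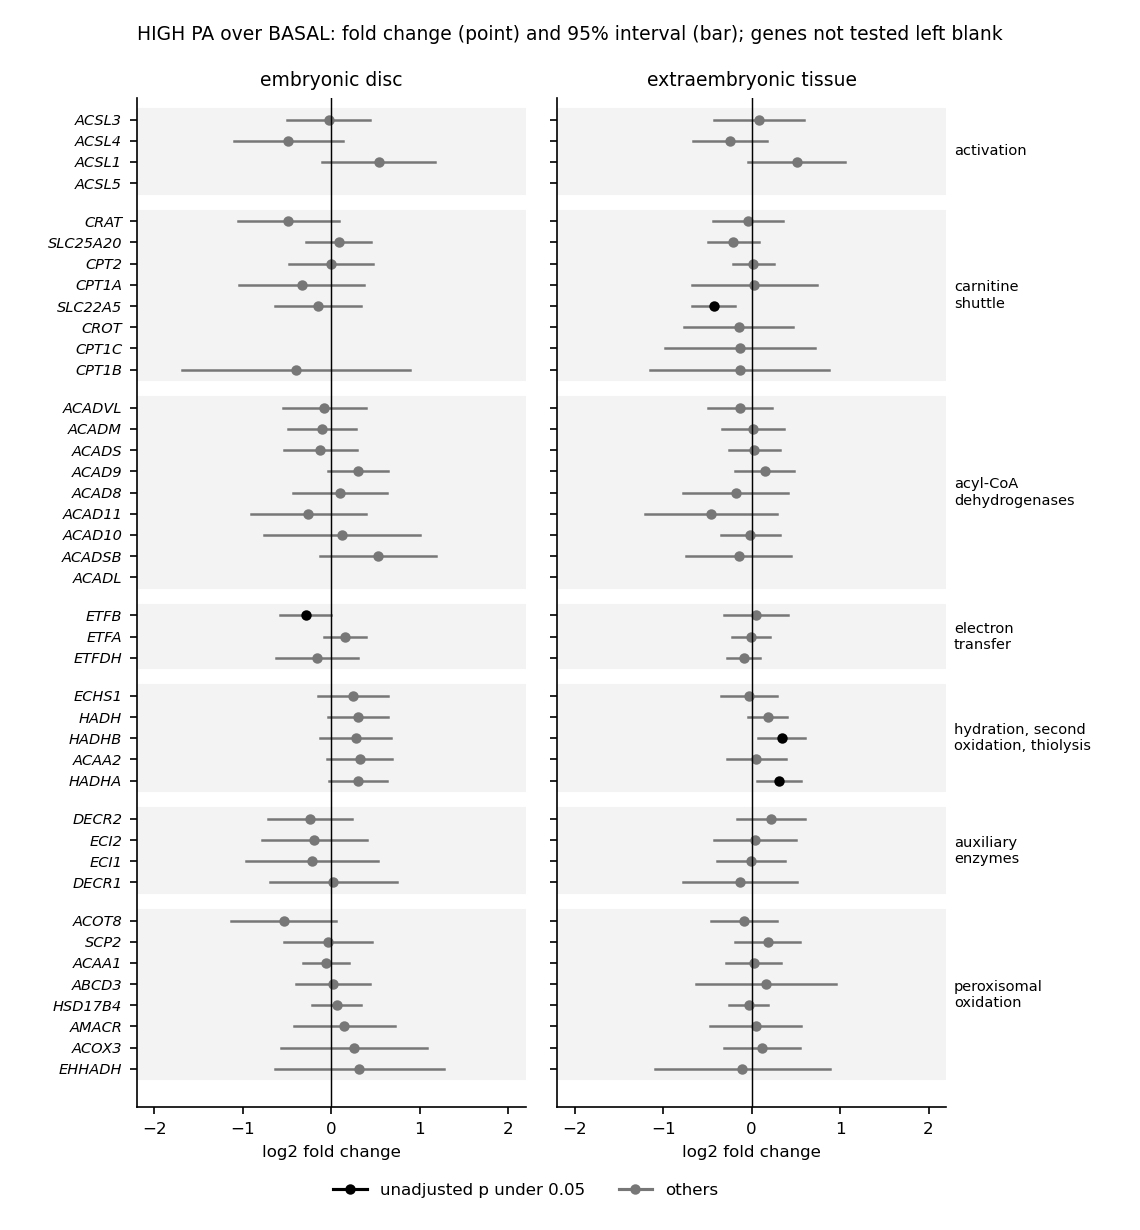
Log2 fold change of HIGH PA over BASAL with its 95% interval for 37 genes in discs (left) and 39 in extraembryonic tissue (right), by role; black points have an unadjusted p under 0.05. ETFB on the left and SLC22A5, HADHB and HADHA on the right are black, and 0 genes pass the adjusted threshold.

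BASAL against CONTROL asked what the basal fatty acids and solvent do together, and HIGH PA against CONTROL added the raised palmitic acid. These comparisons share their CONTROL samples, 3 discs and 4 extraembryonic samples of the same cow, and edgeR called 0 members and 0 genes (0.0%) in each. DESeq2 called 0 members in each too, and at most 1 gene. In discs, 4 of 37 members had an unadjusted p under 0.05 for BASAL against CONTROL, against 3.43% of all genes. ACSL3 stood at 319, 441 and 567.6 CPM in the CONTROL discs, at 506 to 890 in BASAL and at 302 to 1354 in HIGH PA. The CONTROL discs at 319 and 441 CPM lay below every BASAL disc, and all 3 lay within the HIGH PA range. Its log2 fold change was 0.76 over CONTROL in BASAL (SE 0.33, p 0.0303) and 0.73 in HIGH PA (SE 0.33, p 0.0343), with an adjusted p of 1.0 in both. With recipient cow as a block ACSL3 was at 0.44 (SE 0.38) in BASAL and 0.56 (SE 0.43) in HIGH PA. ACAD9 (-0.53, SE 0.22, p 0.0240), ECHS1 (-0.58, SE 0.26, p 0.0324) and ACAD8 (-0.74, SE 0.35, p 0.0462) had lower estimates in BASAL, at -0.37, -0.24 and -0.52 with the cow block. The next lowest p-values on the rising side were those of ETFB (0.28, SE 0.19, p 0.164) and ACSL4 (0.49, SE 0.41, p 0.243). For HIGH PA against CONTROL in discs ACSL3 was the only member under 0.05, beside 4.21% of all genes. HADHB (0.40, SE 0.27) and HSD17B4 (0.27, SE 0.19) followed on the rising side, and ACAD8 (-0.64, SE 0.35), ACADS (-0.46, SE 0.27) and ACOT8 (-0.58, SE 0.38) on the falling side. Over the other settings the ACAD8 estimate for HIGH PA ran from -0.95 to -0.10.

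In extraembryonic tissue the lowest p-values against CONTROL were those of ACOX3. ACOX3 stood at 1.17 to 1.94 CPM in 4 CONTROL samples (median 1.45), at 1.15 to 4.10 in BASAL (median 2.87) and at 0 to 5.69 in HIGH PA (median 2.67). The CONTROL samples lay in the lower part of both other groups, and their ACOX3 values are 12, 7, 11 and 10 reads. Its log2 fold change was 0.84 in BASAL (SE 0.30, p 0.00821, adjusted p 0.885) and 0.96 in HIGH PA (SE 0.31, p 0.00419, adjusted p 0.478). DECR2 had medians of 67.6 CPM in CONTROL, 96.9 in BASAL and 104 in HIGH PA, with log2 fold changes of 0.51 (SE 0.25, p 0.0549) and 0.72 (SE 0.27, p 0.0113, adjusted p 0.478). ACAD11 had the opposite order, 15.9, 10.3 and 9.65 CPM, and a log2 fold change of -0.99 for HIGH PA (SE 0.47, p 0.0431, adjusted p 0.514). CONTROL samples ran from 50.7 to 97.8 CPM for DECR2 and from 12.1 to 20.6 for ACAD11, and overlapped both other groups. At an unadjusted p under 0.05 there was 1 of 39 members for BASAL (3.37% of all genes), ACOX3. For HIGH PA there were 3 (9.67% of all genes): ACOX3, DECR2 and ACAD11. For BASAL, SLC22A5 was at 0.31 (SE 0.15, p 0.0511), ACADM at -0.42 (SE 0.22, p 0.0630), CROT at -0.46 (SE 0.38) and ACADSB at -0.42 (SE 0.35). For HIGH PA, ACAA1 was at 0.38 (SE 0.21, p 0.0852), ACADM at -0.40 (SE 0.23, p 0.0897) and ACSL4 at -0.43 (SE 0.27, p 0.126). With recipient cow as a block, DECR2 was at 0.13 (SE 0.26) in BASAL and 0.32 (SE 0.29) in HIGH PA, ACAD11 was at -0.59 (SE 0.63) in HIGH PA, and ACOX3 was at 0.81 (SE 0.34) and 0.79 (SE 0.37).

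Embryo shape was compared as ovoid against tubular with medium and sex as terms, since tubular embryos are the more elongated. In discs 0 of 37 members were called by edgeR and 0 by DESeq2, beside 0.0% of 11040 genes by edgeR. DESeq2 called 16 of the 11040 genes, 4 higher and 12 lower. At an unadjusted p under 0.05 were 4 members, against 7.30% of all genes. ABCD3 ran from 130 to 317 CPM in 14 tubular discs (median 206) and from 100 to 201 in 8 ovoid discs (median 139). The log2 fold change was -0.53 (SE 0.17, p 0.00388, adjusted p 0.540). ECI1 had medians of 26.1 and 14.3 CPM (-0.91, SE 0.30, p 0.00563, adjusted p 0.561). ECHS1 was at -0.37 (SE 0.16, p 0.0331) and ACAD10 at 0.74 (SE 0.35, p 0.0454). ACSL4 (0.31, SE 0.27, p 0.270) and DECR2 (0.23, SE 0.21, p 0.296) came next on the rising side. The ovoid disc ED BASAL 12 had the lowest value of all discs for ABCD3 (100 CPM), ECI1 (4.00) and ECHS1 (28.4). Over the other settings ECHS1 ran from -0.38 to -0.14. Mesoderm and streak genes summed to a median of 74.0 CPM in ovoid and 161 in tubular discs, and hypoblast genes to 960 and 1420. The part of this content in the differences was not tested.

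In extraembryonic tissue 6 of 41 members were lower in ovoid than in tubular embryos and 0 were higher. They were the synthetases ACSL3 and ACSL4, the carnitine acetyltransferase CRAT, and the peroxisomal genes ABCD3, EHHADH and HSD17B4. The 14.6% of members called stands beside 11.4% of all 11880 genes, of which 5.41% were lower and 5.94% higher. The median log2 fold change of the 41 genes was 0.04, beside 0.004 over all genes, and 24 of the 41 estimates lay above 0. At an unadjusted p under 0.05 were 12 members, 29.3%, beside 33.4% of all genes. The dehydrogenases, the electron transfer genes, the hydration and thiolysis genes and the auxiliary enzymes gave 0 calls, and ACAD9 came nearest (0.38, SE 0.13, adjusted p 0.0533). Of all called genes 52.3% were higher, against 36.8% with DESeq2 and 59.7% with DESeq2 size factors in edgeR, which called 5 members lower each.

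ABCD3, ENSBTAG00000009698 on chromosome 3 (49136317 to 49225714, UMD3.1), had the lowest p-value. It ran from 92.5 to 484 CPM in 16 tubular samples (median 250) and from 33.5 to 318 in 9 ovoid samples (median 97), and 8 of 9 ovoid samples lay below the tubular median. The log2 fold change was -1.44 (SE 0.30, adjusted p 0.00707), a 2.71-fold difference. ACSL3 ran from 281 to 1696 CPM in tubular (median 1008) and from 332 to 1001 in ovoid samples (median 620), with 9 of 9 ovoid samples below the tubular median. Its log2 fold change was -0.83 (SE 0.21, adjusted p 0.0177). The lowest tubular value of ACSL3, 281 CPM, was that of EX BASAL 11.

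ACSL4 had medians of 95.9 CPM in tubular and 67.4 in ovoid samples (-0.61, SE 0.17, adjusted p 0.0297). HSD17B4 had medians of 74.6 and 60.6 CPM (-0.33, SE 0.09, adjusted p 0.0234), and CRAT 83.5 and 58.2 CPM (-0.46, SE 0.14, adjusted p 0.0370). EHHADH lay near the detection limit, with medians of 1.57 and 0.697 CPM (-1.47, SE 0.40, adjusted p 0.0251), and DESeq2, which called the other 5, gave it no adjusted p. Each gene's ovoid and tubular samples overlapped. The 2 spherical samples were at 181 and 276 CPM for ABCD3 and at 1134 and 1221 CPM for ACSL3. The ABCD3 values lay within both the ovoid and the tubular range, and the ACSL3 values above every ovoid sample and within the tubular range. For ACSL4 they were at 47.1 and 65.5 CPM.

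The shape difference in extraembryonic tissue is tied to library and cow. Of 9 ovoid libraries 5 carry a mark 2 in their name, whose meaning no label states, and of 16 tubular ones over 10000 reads 1 does, EX BASAL 11. The marked ovoid libraries had a median of 10.7% mitochondrial reads against 4.11% in the 4 unmarked, and the marked tubular library 20.9% against a median of 4.12% in the other 15. Without marked libraries 0 members were called (190 of 11188 genes were), and ABCD3 stood at medians of 148 CPM in 4 ovoid and 257 in 15 tubular samples (-1.34, SE 0.42, adjusted p 0.0763). ACSL3 then stood at 887 and 1029 CPM (-0.49, SE 0.20, adjusted p 0.153).

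With recipient cow as a block 0 members and 0 genes were called, and with lane as a term 0 and 0. The estimates for ABCD3 were then -0.93 (SE 0.41) and -0.83 (SE 0.27), and those for ACSL3 -0.77 (SE 0.29) and -0.80 (SE 0.24). Within the 2 lanes that held both shapes, the ovoid median was lower in both lanes for ABCD3, ACSL3, ACSL4, EHHADH and HSD17B4 and in 1 for CRAT. For ABCD3 the medians were 72.5 (5 ovoid) and 126 CPM (3 tubular) in lane 3, and 175 (3 ovoid) and 232 CPM (9 tubular) in lane 4. Lane 8 held tubular libraries only, and the highest ABCD3 values, 386, 416, 442 and 484 CPM, all came from that lane. Within the 4 cows with both shapes, the ovoid median was lower in 4 for ACSL3 and EHHADH and in 3 for each of the other called genes. Ovoid and tubular samples numbered 3 and 2 in cow07, 1 and 2 in cow12, 2 and 1 in cow72, and 1 and 7 in cow813. The EHHADH medians in cow72 were close, 0.871 and 0.921 CPM. These genes were chosen by the same contrast in the same libraries, so the directions within lanes and cows are not a separate test. Trophectoderm genes summed to 17192 to 26937 CPM in ovoid and 16352 to 30441 CPM in tubular samples, and hypoblast genes to 295 to 643 and 162 to 1407 CPM. Single markers did differ in the same fit. Of 10 trophectoderm genes 2 were higher in ovoid samples, GATA2 (0.56, SE 0.13) and ELF5 (0.59, SE 0.15). Another 2 were lower, among them PPARG (-1.33, SE 0.34). Of 7 tested hypoblast genes 1 was higher, GATA4 (0.49, SE 0.16), and 0 were lower. The part of these markers in the result was not tested.

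**Figure D5:**
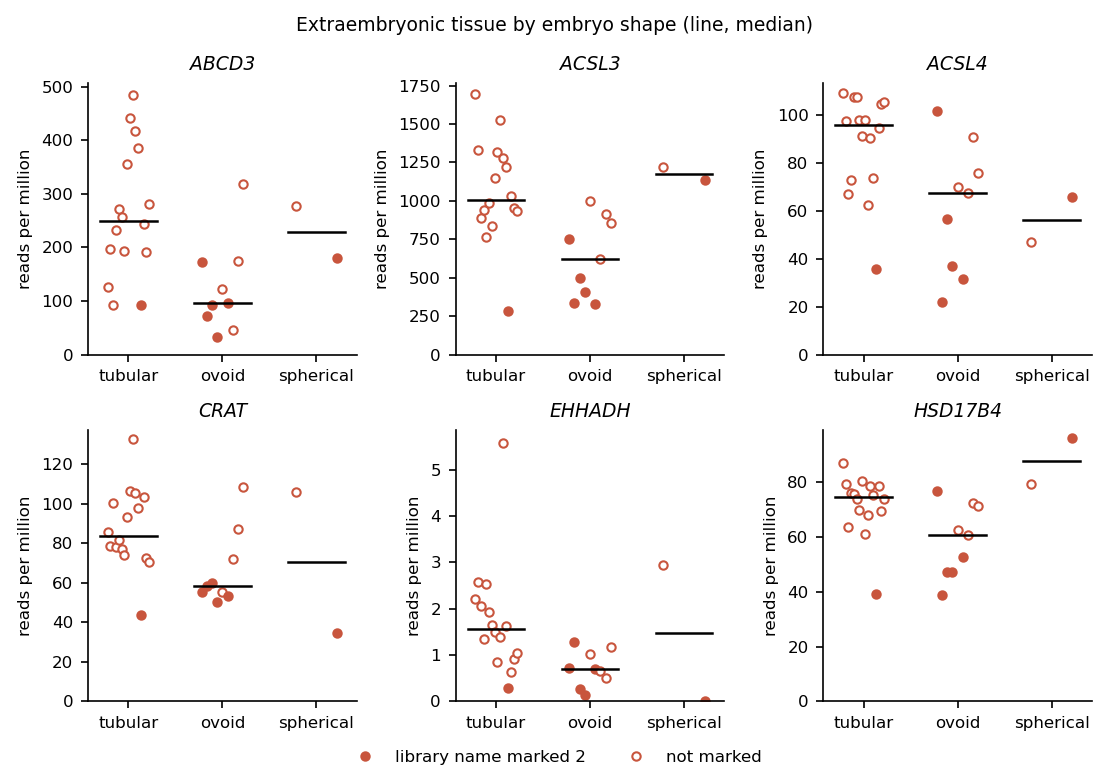
CPM in extraembryonic tissue of 16 tubular, 9 ovoid and 2 spherical embryos for the 6 genes called between ovoid and tubular; filled points are libraries with a mark 2 in their name and the line is the median. The lowest ovoid and the lowest tubular value of each of the 6 genes is a filled point.

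Other genes of the pathway were read from the same fit of ovoid against tubular extraembryonic tissue, where 11.4% of all genes were called, 5.41% lower and 5.94% higher. Of 35 other peroxisomal genes 5 were lower and 0 higher, among them AGPS of ether lipid synthesis (-0.64, SE 0.17, adjusted p 0.0198) and CAT (-0.58, SE 0.16, adjusted p 0.0274). Of 21 other acyl-CoA genes 3 were lower: ACBD3 (-0.55, SE 0.11), SLC27A6 (-2.89, SE 0.69) and FABP5 (-0.63, SE 0.18). Among 29 regulators PPARG (-1.33, SE 0.34) and LPIN1 (-1.05, SE 0.32) were lower, and UCP2 (0.93, SE 0.23), ESRRB (2.39, SE 0.69) and ESRRG (2.47, SE 0.73) were higher. Of 23 other mitochondrial genes NUDT8 (0.71, SE 0.22) and MCAT (0.37, SE 0.12) were higher. These calls come from the same fit and share its ties to library and cow.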

How the data were processed

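Per the labels, RNA of single embryo parts was made into stranded mRNA libraries, sequenced as paired 50-base reads, 12 samples to a lane. The authors deposited a table of counts of exon reads, uniquely placed exon reads and intron reads per gene, without scaling; exon counts were used for all tests. The submitters' processing notes name the build UMD3.1 and the tool DESeq2 1.10.1, and no aligner. The 41 members, the related lists and the tests were chosen with earlier results of these data known. Every member counts as named; statistics are given for each called one, or, where fewer than 3 were called, the 3 of lowest p each way, and for up to 3 genes each way of other lists; 1 such gene is not reported here.

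Tests used edgeR 4.0.16 (quasi-likelihood, trimmed-mean scaling, its default low-count filter, Benjamini-Hochberg over all genes, 0.05). Tissues were compared with embryo as a block, a pairing given by the labels (23 embryos); media with sex, and shapes with medium and sex, as terms. SE is the size of the log2 difference divided by the root of the F statistic; in 25 of 388 member tests edgeR raised the p above the one this gives. P-values of the tissue and interaction tests measure the spread of differences within embryos, and those for media and shapes the spread between embryos. The main fits for media and shapes treat embryos of a cow as independent. DESeq2 1.42.0 and other settings were alternatives; code ran in R 4.3.3 and was tested on simulated data.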

Additional observations from a re-analysis of the deposited data

Results flagged for a closer look

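Levels of the 41 genes were screened for single samples far from the rest of their group in ED HIGH PA (8 samples), EX HIGH PA (10) and EX CONTROL (4). The rule marks about 1 in 20 groups by chance where all values are equally precise. It marked 25 values in 123 group and gene combinations. Libraries of unequal depth are not equally precise, so that rate cannot be set against this count. Other genes were not screened, so the share marked over all genes is not known. The shallow disc ED HIGH PA 5 (119116 reads) gave 4 of the marks: it was the highest for ACADS (92.3 CPM), ACADL (25.2) and HADHB (109) and the lowest for SLC25A20 (8.40). Those values are 11, 3, 13 and 1 reads. ED HIGH PA 3 was highest for ACSL5 (2.22 CPM, 3 reads) and ECI1 (51.8), ED HIGH PA 7 for ACAD10 (33.8), ED HIGH PA 1 for ETFB (139) and ED HIGH PA 6 for ACOT8 (169).

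In extraembryonic tissue the 2 spherical embryos gave 10 of the marks. EX HIGH PA 9 (340016 reads), which no fit with a sex term holds, was highest for ACSL5 (2.94 CPM), CPT1C (5.88) and ACAD11 (26.5) and lowest for CPT2 (11.8), SLC25A20 (5.88) and ACADS (17.6). Those values are 1, 2, 9, 4, 2 and 6 reads. EX HIGH PA 10 was highest for ACSL1 (23.4 CPM), CROT (6.55, 7 reads), ACADL (1.87, 2 reads) and HADHB (67.4). EX HIGH PA 1 was highest for ACAD10 (10.1 CPM) and ETFA (95.8), EX HIGH PA 6 for ACAD8 (43.9) and EX HIGH PA 3 for DECR2 (184). Among CONTROL samples, EX CONTROL 3 was highest for CPT2 (30.2 CPM) and EX CONTROL 4, the ovoid one, for ACAD9 (45.5).

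The 2 undissected HIGH PA embryos enter no comparison. Both exceeded all 7 CONTROL libraries for 4 members: ACAD9 (57.0 and 59.0 CPM, highest CONTROL 55.6), ETFB (121.5 and 136, highest CONTROL 100.3), HADHB (41.4 and 54.7, highest CONTROL 39.9) and ACAA1 (167 and 169, highest CONTROL 143). Each stayed under the highest dissected HIGH PA library. BASAL libraries deep enough for levels also exceeded both embryos for ETFB (EX BASAL 11, 141.6 CPM), HADHB (ED BASAL 11, 59.6) and ACAA1 (EX BASAL 6, 196.6). For ACAD9 the highest such BASAL library, ED BASAL 11 at 52.9 CPM, lay below both. The share of all genes with both embryos above CONTROL is not known, and an effect of palmitic acid in these embryos was not tested.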

How the results depend on the processing

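Calls between tissues numbered 23 members and 22 to 25 under DESeq2, DESeq2 size factors in edgeR, no filter, uniquely placed reads, without shallow libraries, without ED BASAL 12 and without name mark 2. With no replicate block for the embryo pairing they were 22 of 38 tested (10 higher, 12 lower), and with lane as a term, chosen after seeing the data, 0. CPT1A lost its call with DESeq2 size factors (adjusted p 0.0913) and ACAA1 without name mark 2 (0.0999). The 6 shape calls in extraembryonic tissue became 0 without name mark 2, 0 with lane (both chosen after seeing the data), 0 with recipient cow as a block and 3 with the code letter as a term (ABCD3, ACSL3, CRAT). Without ED BASAL 12 there is no change to fits of extraembryonic tissue. Leaving out each CONTROL replicate in turn kept the calls at 0 (lowest 0, highest 0). The fits with every replicate called 0 as well, so these counts do not show whether the estimates were stable. Over the other settings ACOT8 ran from -1.13 to -0.12 for HIGH PA against CONTROL in discs. Uncalled estimates that changed sign were, with cow as a block, ACSL4 (-0.034) and DECR2 (-0.26) for shape in discs and ACSL4 (0.049) for HIGH PA against CONTROL in extraembryonic tissue, and ACSL1 (-0.036) for HIGH PA against BASAL there without name mark 2; the cause was not tested. Depth is a limit in both tissues: members under about 2 CPM rest on few reads per library.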
